A study of Mus musculus with 8 samples.

Results

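The MHC class II genes and their regulators were 10 of the 750 genes counted in 8 peritoneal tumors of mice. They were found by gene symbol and comprised the chains H2-Aa, H2-Ab1 and H2-Eb1, the pseudogene H2-Ea-ps, the invariant chain Cd74, the transactivator Ciita, the H2-DM chains H2-DMa, H2-DMb1 and H2-DMb2, and the H2-O chain H2-Ob. The group was selected on its measured difference between treated and control tumors in these same data, so each such difference among the 10 genes is given as a description, without a test. MC38, a colon cancer line from C57BL/6 mice, was implanted into the peritoneum of male, wild-type C57BL/6 mice aged 7 to 8 weeks, with 500000 cells per mouse. From day 7 after implantation, the treated group received RR-CDA, an agonist of the cytosolic DNA sensing adaptor STING, in 2 intraperitoneal injections of 15 µg, and the control group received PBS. RNA of whole tumors taken 10 days after the first injection was counted by hybridization of NanoString nCounter immune profiling probes, with 4 tumors per group.

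MHC class II molecules are pairs of an alpha and a beta chain that carry peptides of ingested proteins to the surface of dendritic cells, B cells and macrophages, where CD4+ T cells read them. The invariant chain Cd74 fills the groove of new molecules, H2-DM exchanges its remnant for peptide in the endosome, and H2-O restrains H2-DM, mostly in B cells. Ciita is the coactivator that switches these genes on at the X and Y boxes of their promoters, and IFN-γ is its best known inducer outside the professional antigen-presenting cells. C57BL/6 mice make I-A, of the chains H2-Aa and H2-Ab1, but no I-E, since their alpha chain of I-E is defective. Of the 10 genes, 8 lie close together on mouse chromosome 17, in the order H2-DMa, H2-DMb2, H2-DMb1, H2-Ob, H2-Ab1, H2-Aa, H2-Eb1 and H2-Ea-ps, while Ciita and Cd74 lie on chromosomes of their own.

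Counts of the 750 genes summed to between 241506 and 414698 per tumor. The background of a tumor was taken as its mean over the 8 negative probes plus 2 SD. It lay between 8.27 and 11.3 counts in the control tumors and between 5.03 and 10.8 in the STING-treated tumors, with an average of 8.62. Control tumors 2 and 4 differed by less than counting noise over 358 genes, where chi-square divided by its degrees of freedom was 0.404, whereas the 11 other pairs within a group gave 5.89 to 12.6. Their average entered as 1 sample, leaving n = 3 controls against n = 4 treated tumors. Normalized counts are counts scaled to the geometric mean of 20 housekeeping genes, and control values are listed below in the order control 1, averaged controls 2 and 4, control 3. The labels call the tissue colon, although whole peritoneal tumors were extracted. Epcam, a surface marker of gut epithelium, had 3.76 to 17.8 normalized counts over the 7 samples, near background.

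One treated tumor stood apart in another respect. STING-treated tumor 4 held 775 normalized counts of Ambp, a plasma protein gene of hepatocytes, against 2.48 to 11.9 in the 6 other samples. Of 11 hepatocyte genes on the panel, Apoe had the highest counts, and the summed level of the list was 8517 in this tumor against 1298 to 4360.2 in the others. Without Apoe the sum was 1969 in this tumor against 176 to 405 in the others. This tumor also had the highest counts of most class II genes, and the part of the hepatocyte signal in those values was not tested. For the class II chains and for most gene lists, values without this tumor are given beside the results.

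Across the panel, edgeR's quasi-likelihood test called 0 of 750 genes at a Benjamini-Hochberg adjusted p under 0.05 (0%). At an unadjusted p under 0.05, 133 genes were higher in treated tumors (17.7%) and 10 were lower (1.33%). The adjusted threshold was passed by 0 genes with limma, which had 143 higher and 11 lower at the unadjusted one, and by 52 genes with the Wald test of DESeq2. The split between directions depended on the scaling, since TMM gave 87 higher and 40 lower, the size factors of DESeq2 81 and 45, the total count 68 and 31, and the positive controls 89 and 7. Without treated tumor 4, 79 genes were higher, and without averaged controls 2 and 4, 90 were. Counts of the lists below are to be read beside these numbers. Over all genes, the median log2 fold change was 0.21 with housekeeping genes as the scale and -0.021 with TMM, so a gene's difference is also given relative to the panel median where it matters.

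RefSeq promoter windows of build GRCm38.p6, 250 bases before to 50 after a start site, were at hand for H2-Aa, H2-Eb1, H2-DMa, H2-DMb1, H2-DMb2 and H2-Ob, and not for H2-Ab1, Ciita and H2-Ea-ps, while Cd74 was left out of the search. They were searched on both strands for the Y box core GATTGG, the X box core ACNGATG, the interferon element GAS as TTCNNNGAA and the core of the ISRE as GAAANNGAA. In 5 of these 6 genes GATTGG stood on the strand of the gene within 110 to 40 bases before the start site, a range set after the matches were seen, and 3.67% of all 32851 windows had it there. The 60 bases around it are shown because the X and Y boxes are where Ciita acts, with GATTGG and any ACNGATG that precedes it by 25 to 35 bases in capitals. The stretches are H2-Aa at chr17:34287858-34287917 (minus strand), H2-Eb1 at chr17:34305762-34305821, H2-DMb1 at chr17:34153084-34153143, H2-DMb2 at chr17:34145113-34145172 and H2-Ob at chr17:34238802-34238861 (all plus strand).
H2-Aa: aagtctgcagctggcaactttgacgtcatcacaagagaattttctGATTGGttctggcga
H2-Eb1: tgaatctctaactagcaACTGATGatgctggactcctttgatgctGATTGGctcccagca
H2-DMb1: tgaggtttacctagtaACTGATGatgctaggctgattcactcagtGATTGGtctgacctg
H2-DMb2: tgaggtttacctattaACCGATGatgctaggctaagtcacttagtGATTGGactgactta
H2-Ob: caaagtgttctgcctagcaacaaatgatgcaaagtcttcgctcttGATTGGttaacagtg

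Alone, each motif was common, with GATTGG in 16.1% of all windows, ACNGATG in 9.85%, GAS in 8.30% and the ISRE core in 8.56%. The pair at the spacing shown was rare. It occurred in 6 of the 32851 windows (0.0183%), which were those of H2-Eb1, H2-DMb1, H2-DMb2, H2-Eb2, BC051142 and Scaper, and 5 of these 6 lie on chromosome 17. The start of ACNGATG lay 28 bases before that of GATTGG in H2-Eb1 and 29 bases before it in H2-DMb1 and H2-DMb2. The spacing was chosen after the matches were seen, and a match is a description of letters, not a site. H2-Aa had ACNGATG only on the opposite strand, 232 bases before the start site, and H2-Ob had none. Of the windows of H2-DMa, which has 2, one had GATTGG 199 bases before the start site and the other had none of the 4 motifs. GAS was found in H2-DMb2 alone, 218 bases before the start site, and the ISRE core in none of the 6 genes. The stretches of H2-DMb1 and H2-DMb2, which are near-identical copies, share 52 of 60 bases.

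**Figure D1:**
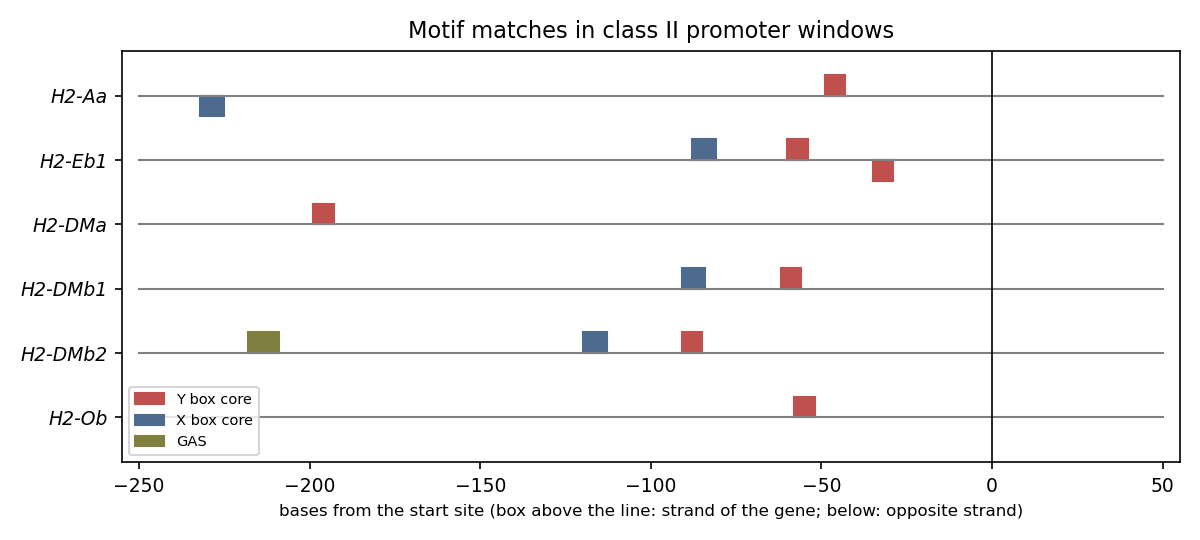
Matches to the Y box core, X box core and GAS in the promoter windows of class II genes that held a match, by distance in bases from the start site at 0; boxes above a line are on the strand of the gene and boxes below it on the opposite strand. The Y box core lies 49 to 91 bases before the start site in 5 genes, with an X box core 28 or 29 bases before it in 3 of them.

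Among the 10 genes, H2-Aa and H2-Ab1 held the widest difference between groups. H2-Aa, the alpha chain of I-A, had 189, 39.1 and 201 normalized counts in the controls, and 1061, 662, 375 and 1523 in STING-treated tumors 1 to 4. Its partner H2-Ab1 had 129, 34.3 and 137 in the controls and 659.9, 486, 225 and 933 in the treated tumors. H2-Eb1, the beta chain of I-E, had 56.4, 26.1 and 61.5 in the controls and 265, 188, 99.7 and 368 in the treated tumors. In all 3 genes the averaged controls 2 and 4 were lowest, treated tumor 3 was the lowest of its group and treated tumor 4 the highest, and the groups did not overlap. In whole tumors, more cells that express a gene and more RNA per cell cannot be told apart.

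Mean H2-Aa was 143 ± 90.1 (SD, n = 3) in controls and 905 ± 499 (SD, n = 4) in treated tumors, a 6.34-fold difference of means and a fitted log2 fold change of 2.65 (SE 0.63). The log2 fold change was 2.51 (SE 0.57) for H2-Ab1 and 2.25 (SE 0.47) for H2-Eb1. Without treated tumor 4 these values were 2.28, 2.18 and 1.92, and without the averaged controls 2.22, 2.12 and 1.96. Relative to the panel median, H2-Aa differed by 2.44 with housekeeping genes as the scale and by 2.35 to 2.45 with the 4 other scalings. H2-Ea-ps had 0.732 to 4.75 normalized counts over the 7 samples and exceeded the background in 0 of 8 tumors, so no fold is given for it.

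Cd74, the invariant chain, followed the chains. It had 257, 82.9 and 321 normalized counts in the controls and 1508, 851, 541 and 2057 in the treated tumors, with the samples in the same order as for H2-Aa. The means were 220.3 ± 123 (SD, n = 3) and 1239 ± 678 (SD, n = 4), with a log2 fold change of 2.48 (SE 0.57), which was 2.13 without treated tumor 4.

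**Figure D2:**
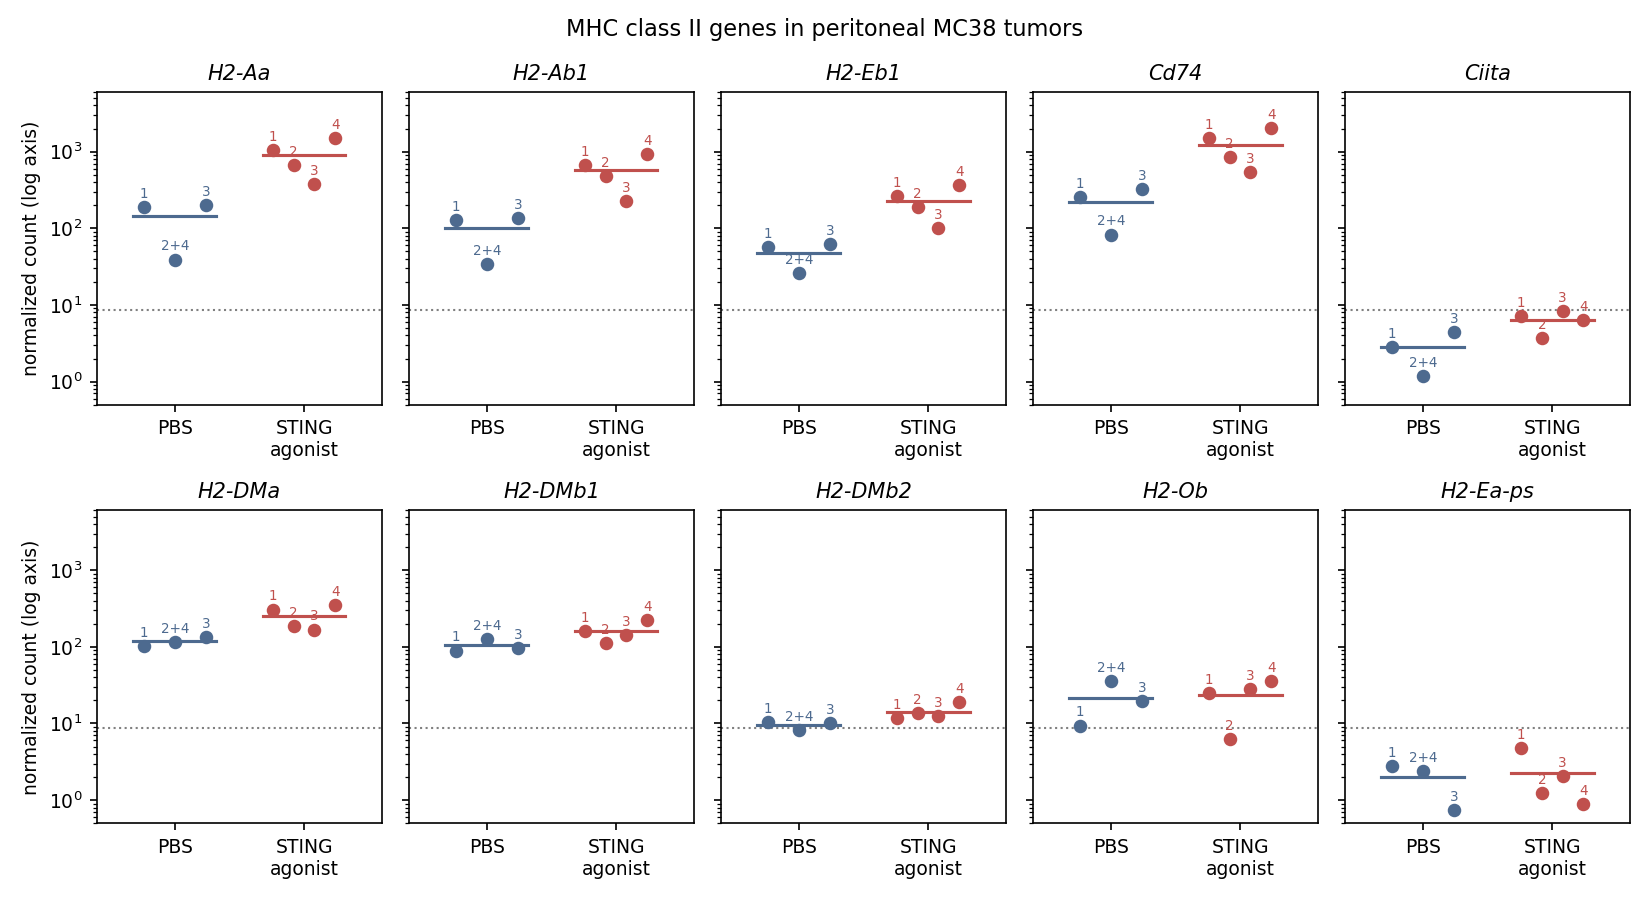
Normalized counts (log axis) of the 10 class II genes in each sample, with the sample number beside each point; horizontal bars are group means and the dotted line is the average background of 8.62 raw counts. H2-Aa, H2-Ab1, H2-Eb1 and Cd74 share 1 order of samples, and Ciita and H2-Ea-ps lie at or under the background.

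Ciita itself was barely measurable in either group. It had 2.82, 1.18 and 4.39 normalized counts in the controls and 7.12, 3.73, 8.31 and 6.28 in the treated tumors, where it exceeded the background of its own tumor in 0 of 4 controls and 1 of 4 treated tumors. Since both groups lay at or under the background, no fold is given, and a difference in Ciita was not detectable at this depth.

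Of the H2-DM genes, which load peptide, H2-DMa and H2-DMb1 differed less between groups than the chains. H2-DMa had 103, 115 and 135 normalized counts in the controls and 306, 184, 168 and 352 in the treated tumors, without overlap, and a log2 fold change of 1.10 (SE 0.29). H2-DMb1 had 89.3, 127 and 97.4 in the controls and 160.2, 113, 143 and 225 in the treated tumors, with a log2 fold change of 0.62 (SE 0.27). For H2-DMb1 the groups overlapped, and unlike the chains, it was highest among the controls in the averaged controls 2 and 4. H2-DMb2 lay near background, with 8.29 to 10.3 in the controls and 11.9 to 18.8 in the treated tumors. Its log2 fold change was 0.56 (SE 0.32), but 2.12 after background subtraction. Being near-identical copies, H2-DMb1 and H2-DMb2 are uncertain, since a probe for one may bind RNA of the other.

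H2-Ob, the beta chain of the H2-DM inhibitor H2-O, had 9.40, 35.5 and 19.8 normalized counts in the controls and 24.9, 6.21, 28.0 and 35.9 in the treated tumors. The groups overlapped throughout, and the log2 fold change of 0.17 (SE 0.60) turned negative with 3 other scalings and was -0.092 without treated tumor 4. Averaged controls 2 and 4, lowest in the chains, were the highest control here.

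The members therefore fell into tiers by the size of their difference. Among the 8 genes above background on average, which leaves out Ciita and H2-Ea-ps, the log2 fold changes ranged from 0.17 to 2.65 with a median of 1.67, against 0.21 for all panel genes. The 4 genes H2-Aa, H2-Ab1, H2-Eb1 and Cd74 held ranks 7, 8, 14 and 10 among 750 genes by log2 fold change. By contrast, H2-DMa held rank 68, H2-DMb1 182, H2-DMb2 200 and H2-Ob 405. The place of H2-DMb2, near background, is uncertain, since its log2 fold change was 2.12 after background subtraction. That of H2-Ob had an SE of 0.60. These tiers are a description, since the same contrast chose the genes. Groups did not overlap in 6 of the 10 genes, all of them higher in treated tumors, where 126 of 750 panel genes did so (16.8%) and 11 were lower without overlap (1.47%), and nothing is read from this count since the same contrast chose the genes. A mean of 20 counts or more was reached by 7 of the 10.

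**Figure D3:**
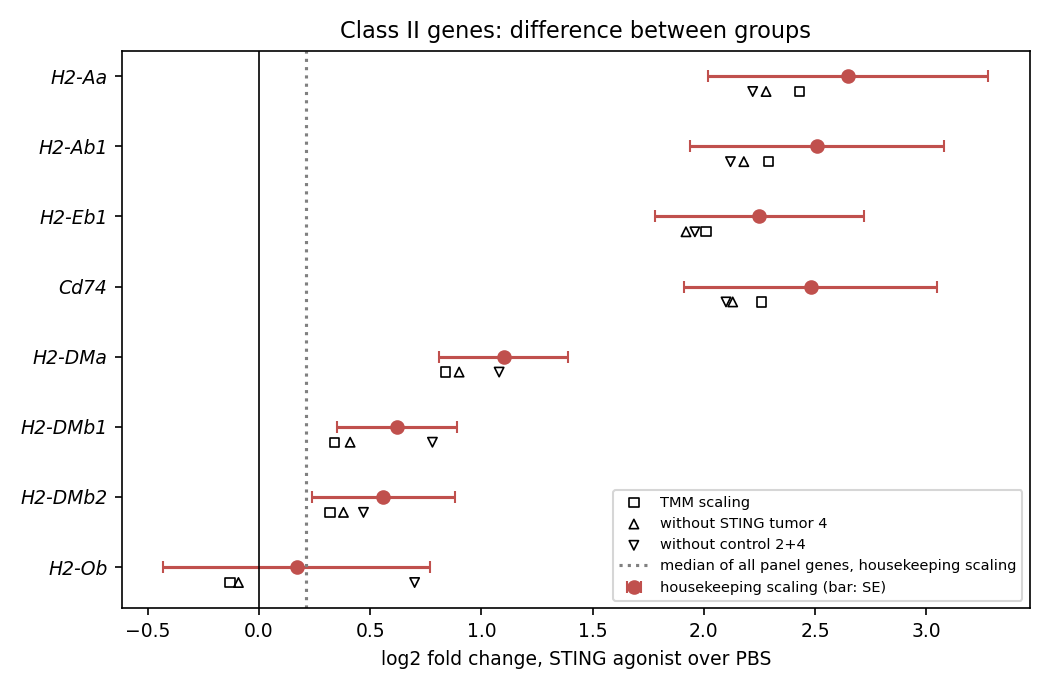
Log2 fold change of STING-treated over control tumors for the 8 class II genes above background in at least one group (filled points with SE bars), with the same value under TMM scaling, without treated tumor 4 and without averaged controls 2 and 4 (open symbols). H2-Aa, H2-Ab1, H2-Eb1 and Cd74 lie between 1.92 and 2.65 under all of these settings, whereas H2-Ob lies on both sides of 0.

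The ratio of the chains to the H2-DM genes differed accordingly. Each ratio compares 2 probes within a sample, so only its change between samples has a meaning. The ratio of H2-Aa to H2-DMb1 was 2.12, 0.308 and 2.06 in the controls and 6.62, 5.86, 2.62 and 6.77 in the treated tumors. By contrast, the ratio of H2-Aa to H2-Ab1 stayed within 1.14 to 1.47 in the controls and 1.36 to 1.66 in the treated tumors.

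Values within groups do not use the contrast that chose the genes. Deviations of log2(normalized count + 1) from the group means were compared over the 7 samples, as a description. The 6 pairs among H2-Aa, H2-Ab1, H2-Eb1 and Cd74 had a Pearson r of 0.95 to 0.99. With the class II score, which is the mean log2 value of these 4 genes, H2-DMa had an r of 0.68, H2-DMb2, near background, of 0.70, H2-DMb1 of 0.12 and H2-Ob of -0.18, while H2-DMb1 and H2-Ob had an r of 0.86 with each other. Over the alternatives, the r of H2-DMa ranged from 0.49 to 0.92 and that of H2-DMb2 from 0.33 to 0.93. The values of H2-DMb1 and H2-Ob rest on single samples, since without averaged controls 2 and 4 the r of H2-DMb1 with the score was 0.68 and that of H2-Ob 0.26, and without treated tumor 4 they were -0.46 and -0.48.

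The class II score was 7.11, 5.40 and 7.27 in the controls and 9.51, 8.90, 8.03 and 9.99 in the treated tumors. Among 510 other genes with a mean of at least 20 counts, the median within-group r with the score was 0.47, and 35 genes exceeded 0.9. Among the genes reported here, the closest was Cd86, a ligand that costimulates T cells through CD28, with an r of 0.996. It was followed by Cxcl9, an IFN-γ-induced chemokine for T cells (0.969), Il12rb1, a receptor chain for IL-12 and IL-23 (0.968), Ptprc, which encodes the pan-leukocyte protein CD45 (0.968), Sbno2, a transcriptional regulator (0.964), and Tapbp, the class I loading factor tapasin (0.964). By the r over all samples, which also carries the difference between groups, the closest were Cxcl9 (0.99), Gbp5 (0.99), Ptprc (0.98), H2-T23 (0.98), Cfb (0.98) and Cd86 (0.98).

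Cd86 had 37.6, 17.8 and 41.7 normalized counts in the controls and 73.6, 53.4, 40.5 and 94.1 in the treated tumors, so it ordered the samples as the class II score did within each group, though its groups overlapped. Its means differed 2.02-fold (edgeR adjusted p = 0.231). Cxcl9 had 208, 80.5 and 263 in the controls and 885, 889, 476 and 1259 in the treated tumors, with a log2 fold change of 2.25 (SE 0.44, edgeR adjusted p = 0.171), higher in 4 of 4 treated tumors than in any control.

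Single leukocyte and macrophage genes were set against the score in each sample. Ptprc had 88.5 ± 39.7 normalized counts (mean and SD, n = 3) in the controls and 211 ± 65.0 (n = 4) in the treated tumors, with a log2 fold change of 1.24 (SE 0.38, edgeR adjusted p = 0.181). On the log2 scale, the class II score minus Ptprc was 0.24 ± 0.25 (SD, n = 3) in controls and 1.43 ± 0.43 (SD, n = 4) in treated tumors. The score minus Emr1, which encodes the macrophage marker F4/80, was -0.46 ± 0.24 and 0.60 ± 0.52, and minus Csf1r, the receptor for the macrophage growth factor CSF1, -0.31 ± 0.39 and 0.90 ± 0.63. Thus the 4 class II genes differed between groups by 1.05 to 1.21 log2 units more than any of these 3 genes, a description since the score comes from the selected genes. Ratios to Itgax and Cd79a are not read, since in controls these genes lay at or near background.

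**Figure D4:**
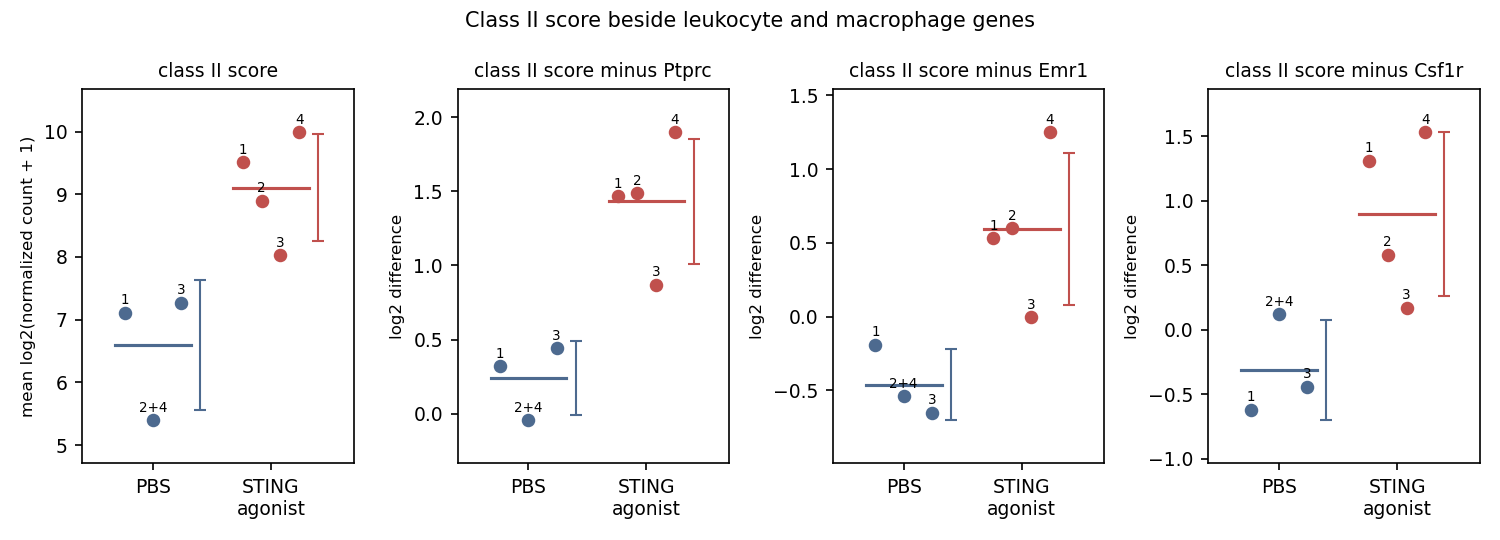
Class II score (mean log2(normalized count + 1) of H2-Aa, H2-Ab1, H2-Eb1 and Cd74) and its difference from Ptprc, Emr1 and Csf1r in each sample; points are samples with their numbers, horizontal bars are means and vertical bars SD (n = 3 controls, n = 4 treated). The score minus Ptprc lies between -0.04 and 0.44 in the controls and between 0.87 and 1.90 in the treated tumors.

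Markers of the cell types that carry class II were measured as lists, beside 17.7% of all panel genes higher at an unadjusted p under 0.05. Of 12 B cell genes, 1 was higher at an unadjusted p under 0.05, and the list had a median log2 fold change of 0.03. That gene, Cd180, a receptor also present on myeloid cells, had the highest counts of the list, with a log2 fold change of 1.38 (SE 0.46, edgeR adjusted p = 0.193). The B cell genes Ms4a1, Cd79a and Pax5 lay at background, with at most 8.79 normalized counts in any sample. By contrast, Cd79b exceeded the background in 8 of 8 tumors and Cd22 in 7 of 8, both with overlapping groups. Their log2 fold changes were 0.34 (SE 0.39) and 0.48 (SE 0.52). On average, 4 of the 12 genes lay above background. Summed counts of the list were 213, 124 and 278 in the controls and 513, 292, 308 and 538 in the treated tumors. Without Cd180 they were 63.9, 79.4 and 105, and 107, 49.7, 110.1 and 97.7.

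Of 8 dendritic cell genes, 1 was higher at the unadjusted threshold, against 17.7% of all panel genes, and the median was 0.35. It was Itgax, which encodes CD11c, with 2.82, 3.55 and 5.86 normalized counts in the controls, under background, and 23.7, 14.9, 8.31 and 22.4 in the treated tumors. Xcr1 and Cd207, which mark subsets of dendritic cells, lay at or near background in both groups. Flt3, another gene of the list, exceeded the background in 7 of 8 tumors. Its groups overlapped, with a log2 fold change of -0.38 (SE 0.42). Of the 8 genes, 5 had a log2 fold change above 0. The highest counts were those of Ccr7, the receptor that guides mature dendritic cells to lymph nodes, which had overlapping groups, and the list summed to 62.0, 78.2 and 77.6 in the controls and 119.9, 65.8, 98.6 and 83.4 in the treated tumors.

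Macrophage and monocyte genes were well above background, with a median log2 fold change of 0.60. Beside 17.7% of all panel genes higher and 1.33% lower, 3 of these 14 were higher and 2 lower at the unadjusted threshold. The higher ones were Ccr2, the chemokine receptor of inflammatory monocytes (1.48, SE 0.40), Emr1 (1.29, SE 0.43) and Fcgr1, the high-affinity IgG receptor (1.07, SE 0.43). The lower ones were the scavenger receptors Cd163 (-1.32, SE 0.46) and Marco (-1.33, SE 0.57), the latter being -0.48 without control 3, where it had 474 normalized counts against 108 and 172 in the other controls. None of the 5 passed the adjusted threshold with edgeR, where the adjusted p lay between 0.171 and 0.250. The number higher ranged from 2 to 8 under the other settings and was 2 without treated tumor 4. The list, led by the complement gene C1qb, summed to 5794, 1960.1 and 6074 in the controls and 7790.3, 5883, 6322 and 8396 in the treated tumors, so that the averaged controls 2 and 4 were low here as in the class II chains. The part of cell numbers in the class II values was not tested.

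Further lists covered other cells, to be read beside 17.7% of all panel genes higher and 1.33% lower. Of 6 leukocyte genes, 4 were higher at the unadjusted threshold (Ptprc, Itgb2, Itgal and Cd53), with a median of 0.75, but only 1 with the total count, with the positive controls, without averaged controls 2 and 4 or without treated tumor 4. Of 10 genes of T and NK cells, 3 were higher (Cd8a, Cd3e and Cd8b1), with a median of 0.16, but 0 with the total count and without averaged controls 2 and 4, treated tumor 1 or treated tumor 4. Among 7 neutrophil genes 0 passed, with a median of 0.15, and among 3 epithelial genes also 0, with a median of -0.39. Of 10 endothelial and stromal genes, Kdr and Col1a1 were higher and Col3a1 lower, with a median of 0.14. Only 1 was higher with every other scaling and without control 1 or treated tumor 1, 2 or 4. Of 11 hepatocyte genes 3 were higher (Ambp, F12 and Serping1), with a median of 1.61 that came with the signal in treated tumor 4. That number was 1 without averaged controls 2 and 4, control 3 or treated tumor 4, and 5 without treated tumor 3.

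The axis from IFN-γ to Ciita was followed through 10 genes on the panel, of which 4 were higher at the unadjusted threshold and 0 lower, with a median log2 fold change of 0.45. That number was 2 with each of the 4 other scalings and without control 1, treated tumor 1 or treated tumor 4, and 7 with all 8 tumors separate. The share higher over all panel genes was 17.7% under the main setting. Ifng, the cytokine itself, had 3.76, 5.92 and 8.79 normalized counts in the controls, at background, and 17.8, 12.4, 5.19 and 16.1 in the treated tumors, exceeding the background in 4 of 8 tumors. Irf1, the transcription factor that acts at a promoter of Ciita, had 1160.1, 866 and 1016 in the controls and 2056, 2083, 1472 and 2558 in the treated tumors, a log2 fold change of 1.01 (SE 0.21, edgeR adjusted p = 0.171), higher in 4 of 4 treated tumors. Irf8, a factor of myeloid cells, had 0.69 (SE 0.28) and Socs1, which restrains IFN-γ signaling, 0.55 (SE 0.20). The receptor chain Ifngr1 had 0.24 (SE 0.13) and the kinase Jak1 -0.10 (SE 0.15).

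Genes known to be induced by IFN-γ gave the highest share among the pathway lists under the main setting, though not without control 3. All 12 were higher at an unadjusted p under 0.05, against 17.7% of all panel genes, with a median log2 fold change of 1.09. The lists were chosen with earlier results of these data known, so these shares are descriptions. With edgeR over all 7 samples, 0 passed the adjusted threshold. With the Wald test of DESeq2, members such as Cxcl9 (adjusted p = 1.79e-04), Gbp5 (0.0126) and Irgm2 (0.0225) passed it. Cxcl9 also passed with edgeR without treated tumor 3 (adjusted p = 0.0475). Under the other settings between 7 and 12 of the 12 genes were higher at the unadjusted threshold. The number was 7 without averaged controls 2 and 4 and also without treated tumor 4. Without control 3 it was 8, against 7 of the 9 genes that costimulate or inhibit T cells. Besides Cxcl9, the lowest p belonged to Gbp5, a guanylate-binding protein of cell-autonomous defense (1.36, SE 0.34), and Irgm2, an immunity-related GTPase (0.96, SE 0.25), each with an edgeR adjusted p of 0.171. Cxcl10 had the highest counts, with 3235, 2050.1 and 3804 normalized counts in the controls and 5020.2, 6540.1, 4237 and 6171 in the treated tumors. The paper counts Cxcl10 among the genes that followed an early type I IFN response to the agonist. Which interferon lay behind the values of this list was not tested.

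In the endosomal pathway that supplies peptides, 4 of 11 genes were higher and 0 lower at the unadjusted threshold, with a median of 0.26, which ranged from 0.04 with the size factors of DESeq2 to 0.47 without control 3. The number higher was 1 with the total count and 2 without treated tumor 4. All panel genes had 133 of 750 higher under the main setting (17.7%), 68 with the total count and 79 without treated tumor 4. Ctss, the protease that trims the invariant chain in antigen-presenting cells, had 1499, 522 and 1434 normalized counts in the controls and 2692, 1751, 1689 and 2704 in the treated tumors. Its log2 fold change was 0.94 (SE 0.36, edgeR adjusted p = 0.223). Ctsh, another cathepsin, had 0.94 (SE 0.33), the lipid receptor Cd36 0.98 (SE 0.29) and the lipid-presenting Cd1d1 0.76 (SE 0.31). General genes of the lysosome had smaller values, namely 0.06 (SE 0.19) for Lamp1, 0.02 (SE 0.12) for Lamp2 and -0.32 (SE 0.20) for Cd63, the gene with the highest counts of the list.

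Class I presentation, the parallel pathway for CD8+ T cells, had 8 of 13 genes higher and 0 lower at the unadjusted threshold, with a median of 0.43 (0.16 to 0.50 under the other settings). The number higher ranged from 2 to 9 under the other settings, with 2 without treated tumor 4 and 3 with TMM, the size factors of DESeq2 or the total count. Panel-wide, the number higher also fell, from 133 of 750 genes (17.7%) to 79 without treated tumor 4 and 87 with TMM. Of the 8, 3 are also counted among the genes induced by IFN-γ. Nlrc5, the counterpart of Ciita for class I genes, was well above background, with 161, 118 and 238 normalized counts in the controls and 349, 343, 226 and 379 in the treated tumors. Its log2 fold change was 0.91 (SE 0.27, edgeR adjusted p = 0.181). The nonclassical H2-T23 had 1.05 (SE 0.28) and the peptide transporter Tap1 0.38 (SE 0.14), whereas H2-D1, with the highest counts, had 0.05 (SE 0.15), a sign that changed with TMM. H2-Q10, a class I gene of the liver and 1 of the 8, had 459.9 normalized counts in treated tumor 4 and 7.52 to 13.5 in the other samples.

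**Figure D5:**
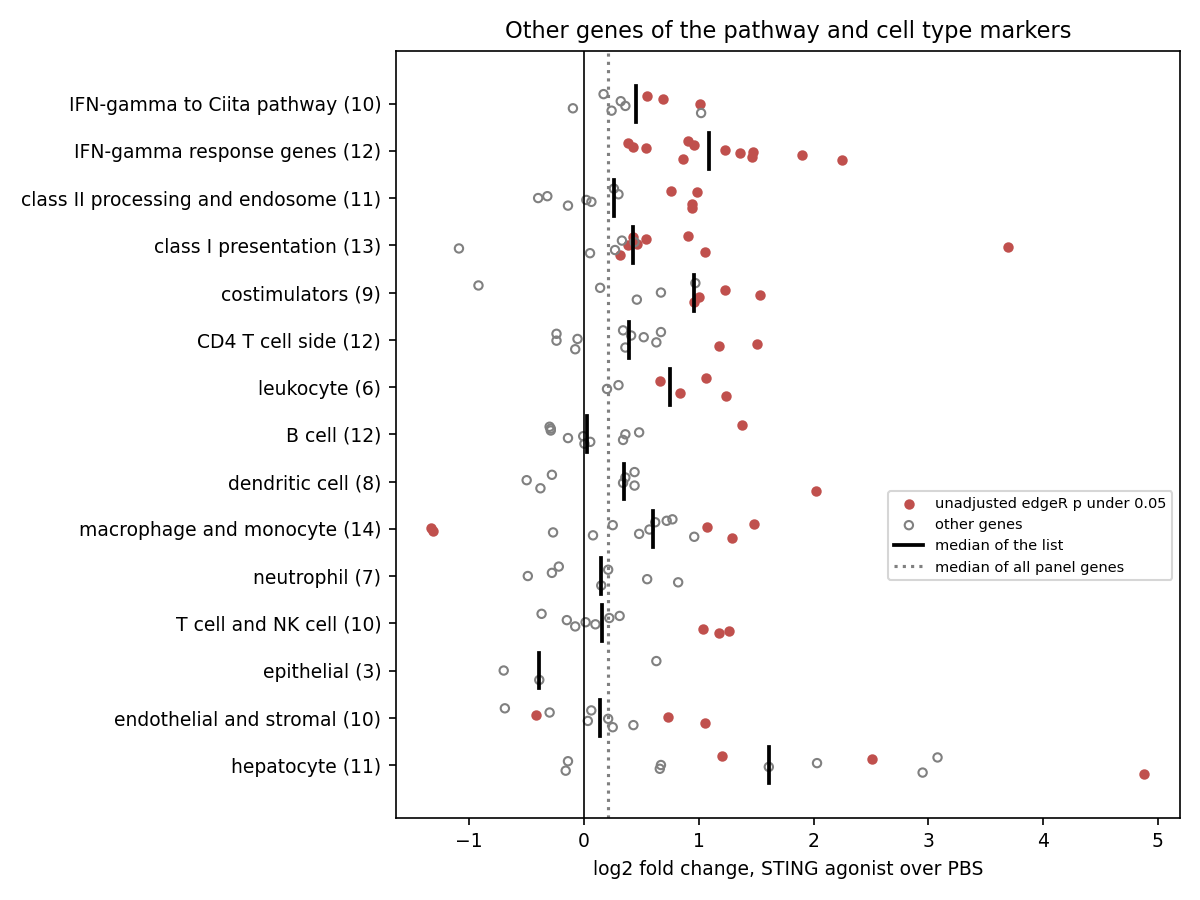
Log2 fold change of STING-treated over control tumors for genes of each list (points; number of genes measured in parentheses, not all of them drawn), with filled points at an unadjusted edgeR p under 0.05, list medians as black bars and the median of all panel genes, 0.21, as a dotted line. All genes drawn of the IFN-gamma response are filled and lie to the right of 0, and the B cell genes center near 0.

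Among genes by which antigen-presenting cells costimulate or inhibit T cells, 4 of 9 were higher at the unadjusted threshold, with a median of 0.96. The number was 3 without treated tumor 4 and 7 without control 3, and the median ranged from 0.54 without control 1 to 1.23 without control 3. They were Cd274, which encodes the inhibitory ligand PD-L1 and is also 1 of the 12 genes induced by IFN-γ (1.23, SE 0.35), Cd40 (0.96, SE 0.27), Cd83, which marks mature dendritic cells (1.53, SE 0.49), and Cd86. Of 12 genes of the T cell receptor complex and its partners, 2 were higher, Cd3g (1.51, SE 0.47) and Cd3e (1.18, SE 0.46), the latter also counted among the genes of T and NK cells, with a median of 0.39 (0.13 to 0.70 under the other settings), and 1 was higher without treated tumor 4. Both lists stand beside 17.7% of all panel genes higher under the main setting. Cd4, the coreceptor for class II, lay at background with 2.37 to 10.3 normalized counts in the controls and 1.04 to 9.94 in the treated tumors, and a difference was not detectable at this depth.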

How the data were processed

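The authors deposited the raw count of each of 784 NanoString probes per tumor, namely 750 panel genes, 20 housekeeping genes, 8 negative and 6 positive controls, without scaling or background subtraction. The lowest count was 1 in every tumor. Groups and replicate numbers came from the labels, which do not say whether tumors of a group came from separate mice, so p-values measure the spread between these tumors. The study pooled its tumors from more than one experiment, which the labels do not assign, so no batch was fitted. Dose, injections, collection day and age came from the study's methods and results. Near-identical controls were sought over genes with a mean count of at least 20 and under 300.

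The geometric mean of the housekeeping genes gave each library size. Treated and control tumors were tested in edgeR 4.0.16 under R 4.3.3 with glmQLFit and glmQLFTest, the quasi-likelihood test, over all 750 genes with no filter and no covariate, and p-values were adjusted by Benjamini-Hochberg. The test was tested on simulated data. Log2 values used a pseudocount of 1. The class II genes and the gene lists were chosen with earlier results of these data known, and list medians and counts are descriptions beside those of all genes. List symbols were matched to the panel in any case or through older symbols of RefSeq, which turned Adgre1 into Emr1, and H2-DMa is spelled H2-Dma in the counts. Promoters were RefSeq windows of build GRCm38.p6.

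The genes named included all 10 class II genes. By likeness to the class II score, 6 genes each were named over all samples and within groups, with a mean of at least 20 counts. Others were drawn from the 3 genes with the lowest edgeR p and the gene with the highest counts of each list. Defining cell type genes at background were also drawn on. Not every gene so chosen is described. Ifng, Cd1d1, Cd53, Cd163, Marco, H2-Q10, Ifngr1, Jak1, Fcgr1, Flt3, Lamp1 and Lamp2, and further genes given for their role, were named after their values were seen. Single values of some genes are not reported here.

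Alternatives were TMM, size factors of DESeq2, the total count or the positive controls as the scale, DESeq2 1.42.0 or limma 3.58.1 as the test, a filter at a mean of 20 counts, background subtraction, 8 separate tumors with and without the replicate number as a block, each sample left out, and, for likeness, pseudocounts of 0.1 and 20 and Spearman's rho.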

Additional observations from a re-analysis of the deposited data

Results flagged for a closer look

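In groups of 4, on the log2 scale with a pseudocount of 1, a tumor whose gap to its nearest neighbor exceeds Dixon's 95% critical share of the range of its group was looked at again, which chance gives in about 1 of 20 groups. Among 79 values tested in the treated tumors, 4 met this, where about 3.95 would by chance. Gbp5 was low in treated tumor 3 (339 normalized counts, gap 0.845 of the range), which was also the treated tumor with the lowest class II score. Treated tumor 2 was low in Gzmb, the cytotoxic protease granzyme B (171 against 296 to 314, gap 0.902), and in Marco (29.8 against 109 to 136, gap 0.851). H2-Q10 was high in treated tumor 4 (459.9 normalized counts, gap 0.952), the tumor with the hepatocyte genes. The controls, with 3 samples, were not examined in this way, and the cause of these values was not tested.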

How the results depend on the processing

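The 4 genes H2-Aa, H2-Ab1, H2-Eb1 and Cd74 had log2 fold changes of 1.92 to 3.13 under the main setting and 17 alternatives. H2-DMa had 0.82 to 1.25 and H2-DMb1 0.33 to 0.78, whereas H2-Ob ranged from -0.19 to 0.70. H2-DMb2, near background and left out by the filter, ranged from 0.31 with the size factors of DESeq2 to 2.12 after background subtraction. The number of genes at an unadjusted p under 0.05 was 143 and ranged from 84 to 160 when each sample was left out, with 84 without treated tumor 1 and 89 without treated tumor 4. At an adjusted p under 0.05 it was 0 with edgeR, 52 with the Wald test of DESeq2, and 0 to 7 when each sample was left out, with 7 without treated tumor 3 and 1 without control 3. The replicate numbers do not pair the tumors, since deviations of same-numbered tumors had r of -0.0601, -0.081, -0.284 and -0.128 and 0 of 8 tumors were nearest to their own number in the other group. With the replicate block and all 8 tumors separate, 172 genes passed the unadjusted and 0 the adjusted threshold.

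Over all genes the median log2 fold change was -0.035 with the size factors of DESeq2 against 0.21. That of all 10 class II genes was 2.25 with the filter at 20 counts against 1.09, since 3 low genes were left out. That of the IFN-γ to Ciita axis was 0.20 with TMM, 0.19 with the size factors of DESeq2 and 0.24 with the total count against 0.45, since these scalings shift all genes.

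H2-Ob, given without a test, took either sign. Outside the class II genes, signs changed for 7 of the genes compared over the alternatives. H2-D1 was -0.22 with TMM, -0.23 with the size factors of DESeq2, -0.14 with the total count, -0.017 with all 8 tumors separate, -0.006 with the block added, -0.016 without control 1 and -0.009 without control 3. Leaving out 1 sample at a time gave H2-D1 from -0.016 to 0.19. S100a8 was -0.16, -0.17 and -0.04 with the first 3 of these scalings, -0.029 without control 1 and -0.043 without treated tumor 1, against 0.15, and ranged from -0.043 to 0.49 over the samples left out. Cxcr1, at background, was 0.19 after background subtraction and 0.34 without control 3, against -0.49, and ranged from -0.79 to 0.34 over the samples left out. Lamp1 (0.06) and Lamp2 (0.02) were -0.20 and -0.23 with TMM, -0.22 and -0.25 with the size factors of DESeq2, -0.12 and -0.17 with the total count and -0.024 and -0.00085 with all 8 tumors separate, Lamp1 was -0.0025 with the block, and they ranged from -0.10 to 0.25 and from -0.027 to 0.069 over the samples left out. Ifngr1 was -0.013 with TMM and -0.026 with the size factors of DESeq2 against 0.24, and Jak1 ranged from -0.18 to 0.008 over the samples left out, against -0.10. The within-group r with the class II score was at least 0.99 for Cd86 under every alternative run for it, and fell to 0.94 for Il12rb1, 0.93 for Cxcl9, 0.91 for Gbp5, 0.89 for Ptprc and H2-T23, 0.88 for Cfb and Tapbp and 0.85 for Sbno2. Depth limits Ciita, H2-Ea-ps, H2-DMb2, Cd4 and most B cell genes, whose counts lie near background.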

Other observations

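The factors that switch on class I and class II genes were measured at unequal distance from background. Nlrc5 had 118 to 379 normalized counts over the 7 samples, whereas Ciita had 1.18 to 8.31, although its target genes reached 2057. Counts of different genes also depend on their probes, so this says only that Ciita RNA could not be followed with this probe, at this depth, on the day of collection.

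In the averaged controls 2 and 4, the chains parted from H2-DMa and H2-DMb1, though not from H2-DMb2, which was 8.29 there against 10.3 and 10.2, near background. H2-Aa was 39.1 there against 189 and 201 in the other controls, and Csf1r was 37.9 against 212 and 208, while H2-DMa was 115 against 103 and 135, and H2-DMb1 was 127 against 89.3 and 97.4. The ratio of H2-Aa to H2-DMa was 0.340 in that sample against 1.83 and 1.49.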
